A study of Mus musculus with 16 samples.

Results

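The clustered histone genes, whose names in the deposited gene table start with Hist1h, Hist2h, Hist3h or Hist4h, were examined in mouse hematopoietic stem cells (HSCs) sorted by the surface integrin MAC-1. The name rule took 71 of 46078 genes in the table, with 70 distinct names, since Hist2h2bb stands on a pair of Ensembl identifiers. RNA was sequenced in 16 samples of 5 populations. Steady-state (SS) HSCs came from untreated mice and were sorted as MAC-1- (n = 3) or MAC-1low (n = 3). 4 week HSCs came from recipients that had received 900 cGy and 8000 LSK cells (lineage negative, cKit+, Sca1+) 4 weeks before, and were sorted as MAC-1- (n = 3), MAC-1low (n = 4) or MAC-1+ (n = 3). All 16 samples were of the strain B6.SJL and the genotype WT and carried the LSK SLAM phenotype (LSK, CD48-, CD150+). The ages of the animals were not given, and nothing in the labels said that replicates came from separate mice, so that p-values measure the spread between these samples.

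Histones are the proteins around which DNA is wound: H2A, H2B, H3 and H4 form the core of the nucleosome, and H1 binds the linker DNA between nucleosomes. Most clustered histone genes are transcribed in S phase, and their mRNAs end just after a short stem-loop, bound by SLBP, and not in a poly(A) tail. Some of these genes also give longer, polyadenylated transcripts, which persist in cells that do not divide. SMART-Seq v4, the kit used here, starts reverse transcription from poly(A), so the counts describe RNA that this priming could reach.

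The stem-loop letters were looked for, on the sense strand, in the members' transcripts in GENCODE M21 (build GRCm38), and were found in 44 members. At least 1 coding transcript held them in 72 of 21901 genes (0.329%), of which 44 were members. The 3 most frequent of 8 forms are shown with 5 bases on either side for the most abundant member of each form, since this element separates the ends of these genes. Capitals mark the stem of 6 bases on each side of a loop of 4 bases.
Hist1h1c, chr13:23739512-23739527, plus strand: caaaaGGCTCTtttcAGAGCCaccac
Hist1h4d, chr13:23581950-23581965, plus strand: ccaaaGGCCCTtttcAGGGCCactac
Hist1h3e, chr13:23561903-23561918, minus strand: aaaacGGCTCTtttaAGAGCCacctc
The form of Hist1h1c was held by 24 members of H1, H2A, H2B and H3, and the form of Hist1h3e by 6 members of H1, H2B and H3. The form of Hist1h4d was held by 7 members, all of them H4 genes, and differs from that of Hist1h1c in the stem.

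Of the 71 members, 53 had at least 10 counts in at least 3 samples, and 17 had at least 10 counts in all 16 samples. 6 members reached 10 counts in 1 or 2 samples, among them the testis H1 gene Hist1h1t and the H3 gene Hist2h3c2. 12 members never reached 10 counts, and 5 of these were at 0 in all 16 samples, namely Hist2h2aa1, Hist2h2aa2, Hist2h3b, Hist2h3c1 and 1 of the identifiers named Hist2h2bb. A count of 0 allows up to 3 counts, or 0.112 to 0.220 CPM (a gene's counts scaled to a common library size) depending on the sample, and covers counting error only.

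Detection was set beside the annotated 3′ ends of the members. In 22 members a transcript ran at least 100 bases past the stem-loop, here called an extended end, and 19 of these were detected and held 55.7% of all member counts. In another 22 members the transcript with the letters stopped sooner, a short end, and 18 of these were detected but held 9.74% of the counts. The 22 members whose transcripts lacked the letters held 33.1%, mostly from Hist1h2bc, and 14 of them were detected. In most of these members, such as Hist1h2bl and Hist1h2ak, the annotated transcript ends at the stop codon or a few bases past it. A stem-loop downstream of that end could not be found, so lacking the letters does not describe the 3′ end of their RNA. Per kb of exon, the median level was 3.94 CPM with an extended end, 4.22 CPM with a short end and 3.28 CPM without the letters, while the median level per gene, not divided by length, was 8.24 CPM, 2.02 CPM and 1.32 CPM in the same order. The other members were 3 pseudogenes and the 2 identifiers that M21 does not hold (Hist1h2bm and Hist1h2bh). AATAAA or ATTAAA, letters of the poly(A) signal, stood in the last 50 bases of a transcript in 12 of 22 members with an extended end and 2 of 22 with a short end, compared with 50.2% of all 58797 coding transcripts. For Hist1h2bp, which has a short end, the signal stood in a second, spliced transcript that lacks the stem-loop letters.

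Clustered histone genes are near copies of each other, and reads from shared sequence may be dropped or placed on another copy, depending on the counting program, which is not given in the sources used here. In the 69 members found in M21, a median of 55.0% of all windows of 50 bases also stood in a transcript of another gene. All 5 members at 0 had 100% of their windows in another gene, and no other member did. Of 36 members with over 50% of windows shared, 23 were detected, compared with 29 of 33 members with 50% or less. How far shared sequence set these counts was not tested.

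**Figure D1:**
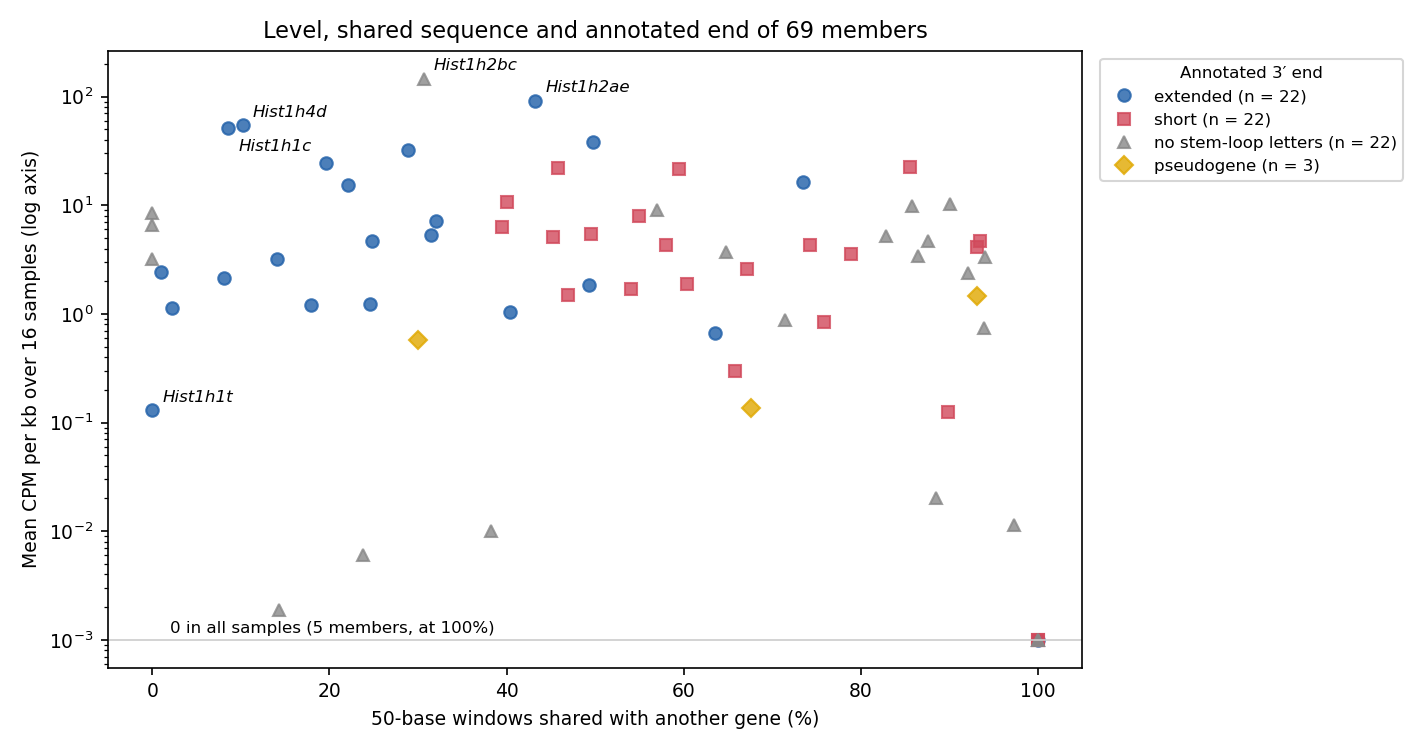
Each of 69 members is plotted by the percent of its 50-base windows shared with another gene (x axis) and its mean CPM per kb of exon over 16 samples (y axis, log scale), with symbols for the annotated 3′ end. Hist1h2bc lies highest at 146 CPM per kb, and the 5 members at 0 lie together at 100% shared windows.

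Total counts ran from 13781278 to 28580658 per sample, of which clustered histone genes took 0.0458% to 0.0890%. The HSC markers Kit, Ly6a, Slamf1, Procr, Hlf, Mecom, Fgd5 and Hoxb5 each had counts in every population, and each of them but Slamf1 had its lowest mean in 4 week MAC-1- HSCs. Hlf, for example, had a mean of 67.0 CPM there and 668 CPM in 4 week MAC-1+ HSCs. Markers of other cells also differed between populations. The summed level of 7 megakaryocyte and platelet genes ran from 4251 to 6744 CPM in 4 week MAC-1- HSCs and from 156 to 1097 CPM in the others, and that of 7 neutrophil genes from 164 to 6947 CPM in 4 week MAC-1+ HSCs and from 23.1 to 168 CPM in the others. The sum of 8 erythroblast genes ran from 81.4 to 178 CPM in 4 week MAC-1+ HSCs and from 15.6 to 71.9 CPM in the others. In bulk RNA, fewer cells of a type and less RNA per cell cannot be told apart.

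Member levels were uneven. Hist1h2bc, which encodes an H2B protein, gave 25.8% of all member counts and ranked 1151st of 13661 genes tested by mean CPM, and the 4 most abundant members, Hist1h2bc, Hist1h1c, Hist1h2ae and Hist1h4d, gave 57.4%. Of the 11 most abundant members, 9 had an extended end. The other 2, Hist1h2bc and the H2B gene Hist2h2be, had no stem-loop letters in their transcripts. The median level of the 52 members that passed the filter on low counts was 3.92 CPM, compared with 15.3 CPM over all 13661 genes tested. In 18 of these 52 members (34.6%), 1 population held both a sample at 0 and a sample with 50 counts or more, which was also true of 33.3% of all genes tested.

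**Figure D2:**
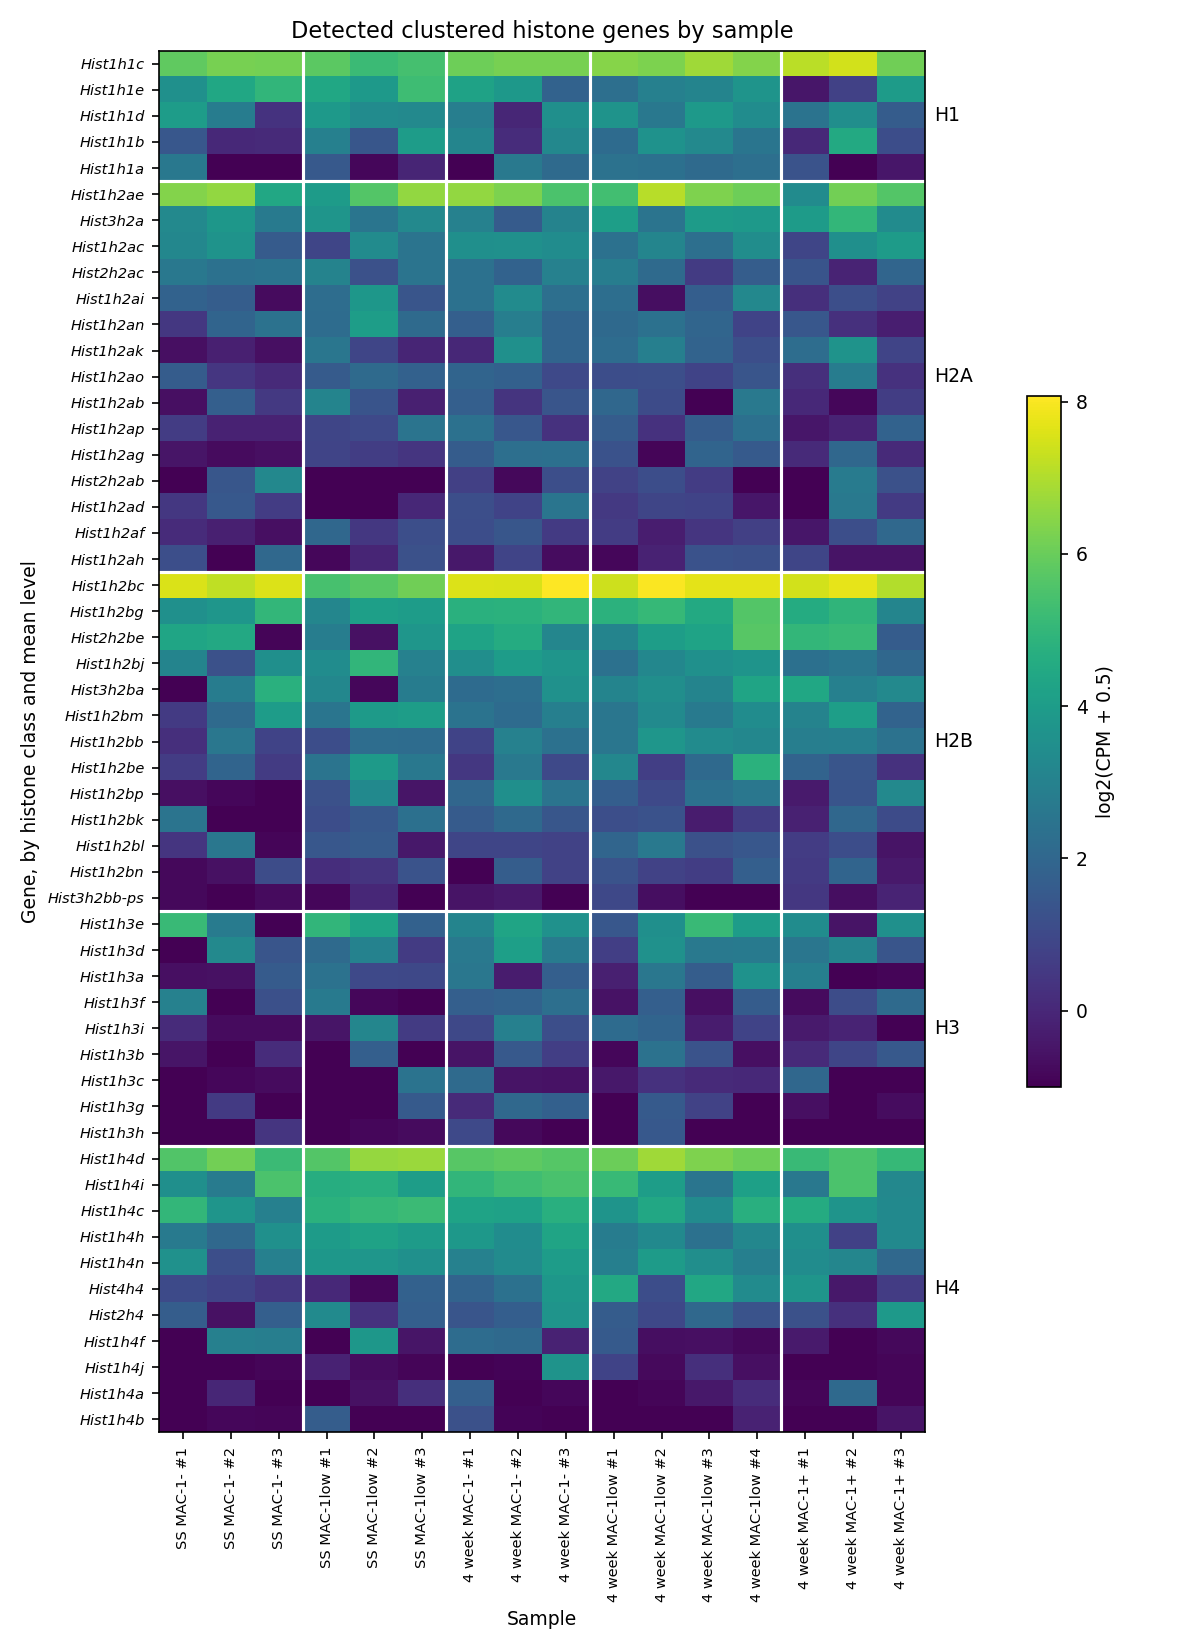
Levels of the 53 detected members (vertical axis, by histone class and mean level) in each of 16 samples (horizontal axis), as log2(CPM + 0.5). Hist1h2bc, Hist1h1c, Hist1h2ae and Hist1h4d form bright bands across all samples, and most other members alternate between high and low samples of the same population.

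The number of members with at least 10 counts in a sample differed between populations. It was 32 to 36 in SS MAC-1-, 39 to 42 in SS MAC-1low, 46 in each sample of 4 week MAC-1-, 44 to 47 in 4 week MAC-1low and 37 to 39 in 4 week MAC-1+ HSCs. SS MAC-1- samples therefore held the fewest detected members and shared no value with any other population. Over all genes, those with at least 1 count ran from 14658 to 17576 in SS MAC-1- samples and from 14533 to 17576 over all 16 samples. The number of all genes with at least 10 counts was not taken, so whether the difference belongs to the histone genes was not tested. When all samples were thinned to the smallest total, the ranges were 32 to 33, 39 to 41, 44 to 46, 43 to 46 and 32 to 37 in the same order, and SS MAC-1- and 4 week MAC-1+ samples then overlapped.

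The summed level of all 71 members was 585 ± 17.1 CPM (SD, n = 3) in SS MAC-1-, 537 ± 74.7 CPM (n = 3) in SS MAC-1low, 732 ± 46.8 CPM (n = 3) in 4 week MAC-1-, 759 ± 111 CPM (n = 4) in 4 week MAC-1low and 621 ± 182 CPM (n = 3) in 4 week MAC-1+ HSCs. MAC-1- and MAC-1low samples of the 4 week mice lay above all SS samples, and 4 week MAC-1+ samples ran from 456 to 816 CPM, overlapping every other population. Hist1h2bc gave 25.6% to 34.4% of the sum in every sample outside SS MAC-1low, and 9.12% to 11.5% in SS MAC-1low. Without Hist1h2bc, the sum had its lowest mean in SS MAC-1-, 408 ± 22.2 CPM (SD). Then came 4 week MAC-1+ (448 ± 142 CPM), SS MAC-1low (483 ± 64.1 CPM), 4 week MAC-1- (515 ± 24.8 CPM) and 4 week MAC-1low (549 ± 76.1 CPM). Samples then ran from 326 to 603 CPM in 4 week MAC-1+, from 444 to 606 CPM in 4 week MAC-1low and from 409 to 520 CPM in SS MAC-1low. These populations therefore overlapped. This sum is a description, with no test.

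**Figure D3:**
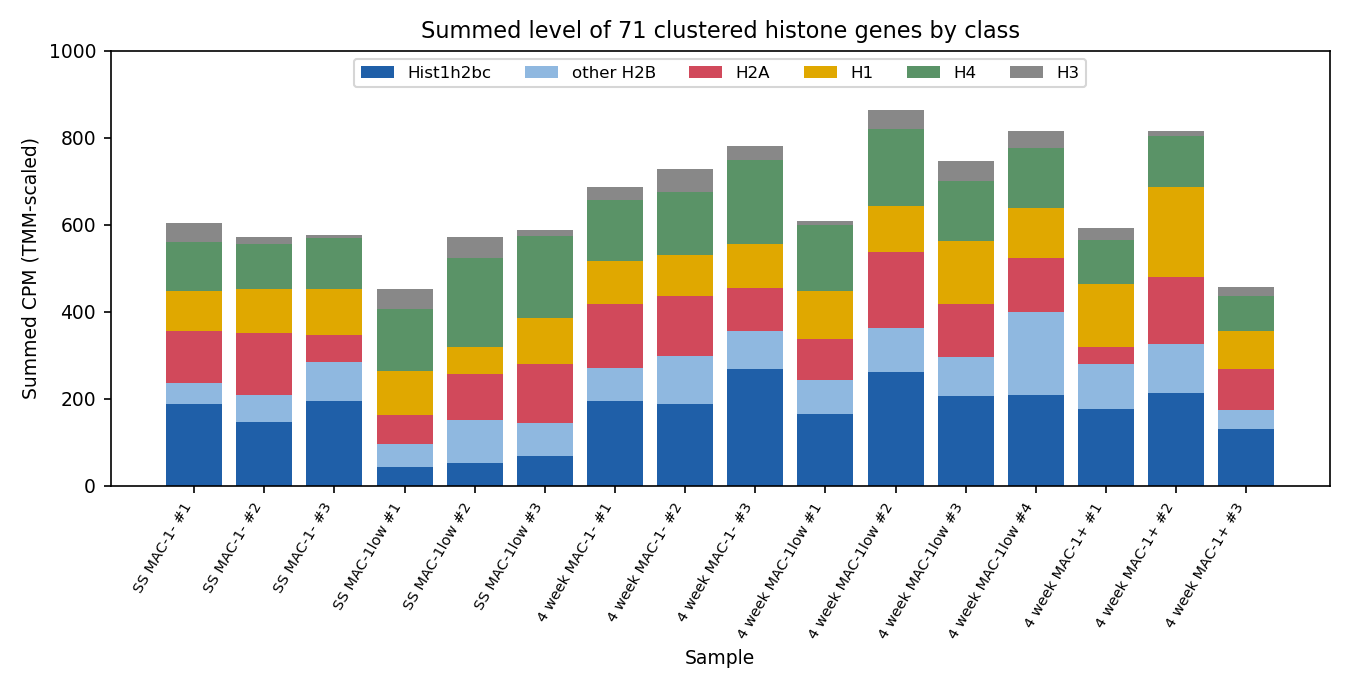
Summed CPM of all 71 members in each sample (bars stacked from 0), split into Hist1h2bc, the other H2B genes, H2A, H1, H4 and H3. The Hist1h2bc segment is short in the 3 SS MAC-1low samples.

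Linker histone genes were led by Hist1h1c (H1), a gene of 1560 bases on chr13:23738808-23740367, which gave 72.4% of the H1 counts. Its level was 58.1, 72.7 and 72.7 CPM in SS MAC-1-, 54.7, 35.5 and 41.4 CPM in SS MAC-1low and 66.0, 74.4 and 73.4 CPM in 4 week MAC-1- samples. It was 84.6, 76.6, 110 and 82.5 CPM in 4 week MAC-1low and 139, 174 and 68.3 CPM in 4 week MAC-1+ samples. Every SS MAC-1low sample lay below all others, and 2 of the 3 4 week MAC-1+ samples lay above all others. Its log2 difference, MAC-1+ minus MAC-1- at 4 weeks, was 0.83 ± 0.34 (SE), with an adjusted p of 0.296 by edgeR's quasi-likelihood test. Hist1h1e, another linker histone gene, had a mean of 24.2 CPM, with 3 samples from 14.4 to 37.5 CPM, in SS MAC-1low and 8.01 ± 3.26 CPM (n = 4) in 4 week MAC-1low HSCs, without overlap. Its exons overlap those of Hist1h2be and Gm11398 on the same strand, so its reads cannot be separated from theirs where they overlap.

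H2A genes were led by Hist1h2ae (chr13:23570517-23571220), with 57.0% of the H2A counts. Its level ran from 9.92 to 137 CPM over the 16 samples, with 67.1 ± 40.4 CPM in SS MAC-1- (n = 3) and 43.6 ± 31.0 CPM in 4 week MAC-1+ HSCs (n = 3), and all 5 populations overlapped. Hist3h2a, on chromosome 11, had 5.96 ± 2.94 CPM in 4 week MAC-1- (n = 3) and 19.1 ± 11.5 CPM in 4 week MAC-1+ HSCs (n = 3). These populations did not overlap, but its exons overlap those of Trim17 on the same strand. Hist1h2ag was counted 3, 2 and 3 times in SS MAC-1- samples and 42, 119 and 76 times in those of 4 week MAC-1- HSCs, and Hist1h2ak had 2, 7 and 3 counts compared with 8, 300 and 54. Each pair of populations stood apart, and edgeR gave adjusted p of 0.391 and 0.387. Hist2h2ab was at 0 in all 3 SS MAC-1low samples and had 0, 42 and 175 counts in SS MAC-1- samples, so that these populations shared the value 0. Exons of Hist1h2ae, Hist1h2ag, Hist1h2ak and Hist2h2ab overlap those of a gene on the other strand (Gm44394, Gm44486, Gm44454 and Gm15444), and without strand the reads of the pair cannot be told apart.

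H2B genes held 39.8% of all member counts, and Hist1h2bc gave 64.8% of them. Hist1h2bc (ENSMUSG00000018102) lies on chr13:23684199-23692908 and in M21 has 1 transcript of 2 exons and 1156 bases. It was counted 2564, 2802 and 3781 times in SS MAC-1-, 810, 934 and 1314 times in SS MAC-1low, 3106, 4927 and 4447 times in 4 week MAC-1-, 2679, 5666, 4022 and 5564 times in 4 week MAC-1low and 3721, 3387 and 3290 times in 4 week MAC-1+ samples. The 3 SS MAC-1low samples were the lowest of all 16, and the other 4 populations overlapped. As levels, these were 176 ± 25.6 CPM in SS MAC-1- (n = 3), 54.1 ± 12.8 CPM in SS MAC-1low (n = 3), 217 ± 45.0 CPM in 4 week MAC-1- (n = 3), 210 ± 39.3 CPM in 4 week MAC-1low (n = 4) and 173 ± 41.4 CPM in 4 week MAC-1+ HSCs (n = 3). Of its windows of 50 bases, 30.6% also stood in other genes.

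**Figure D4:**
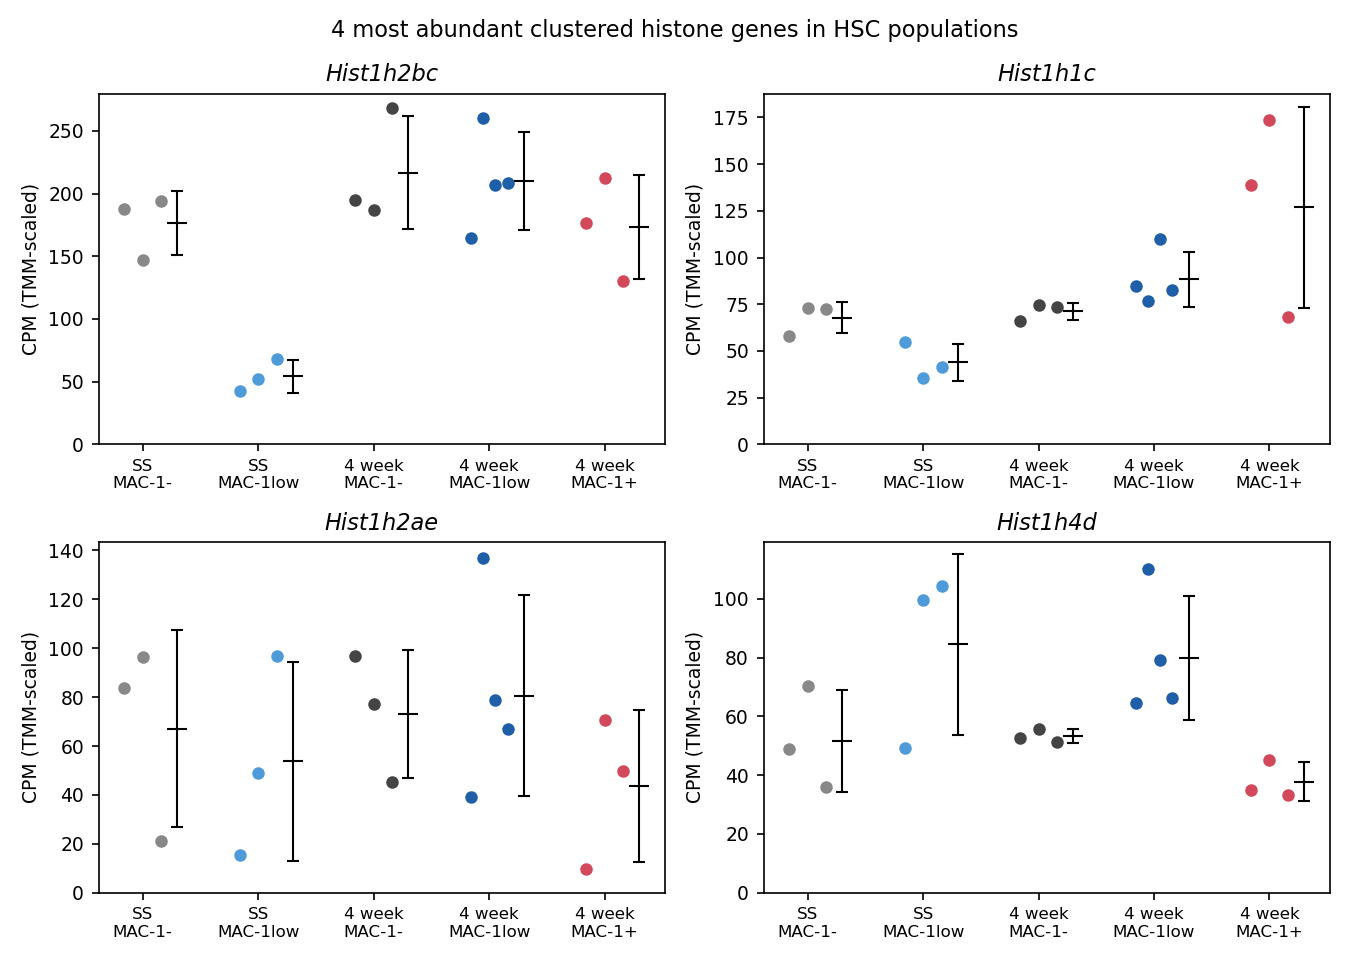
CPM of the 4 most abundant members in each sample (points) of 5 populations, with the mean and SD (bars; n = 4 in 4 week MAC-1low, otherwise n = 3). Hist1h2bc in SS MAC-1low lies at 42.3 to 67.8 CPM, below every other sample.

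Among the other H2B genes, Hist1h2bg, Hist2h2be and Hist3h2ba also had their lowest mean in SS MAC-1low HSCs, and no call was made for them. Most other tested H2B genes went the other way, with a positive log2 difference from SS MAC-1- to SS MAC-1low. Hist1h2bj, Hist1h2bm and Hist1h2bk had their highest mean in SS MAC-1low HSCs. Hist1h2bg had 18.6 ± 11.5 CPM in SS MAC-1- (n = 3) and 13.7 ± 4.59 CPM in SS MAC-1low (n = 3), which overlapped. Hist2h2be was counted 266, 414 and 1 times in SS MAC-1- and 127, 3 and 255 times in SS MAC-1low samples, so that both held a sample near 0. Hist1h2bp was counted 2, 1 and 0 times in SS MAC-1-, 36, 168 and 4 times in SS MAC-1low and 56, 289 and 84 times in 4 week MAC-1- samples. Its SS MAC-1- samples lay below both other populations, and edgeR gave an adjusted p of 0.498 against SS MAC-1low and 0.302 against 4 week MAC-1- HSCs.

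H3 genes held the smallest share of the member counts, 4.78%. Hist1h3e, the most abundant, was counted 479, 122 and 0 times in SS MAC-1- samples and 216, 3 and 283 times in 4 week MAC-1+ samples, so that replicates differed more than populations. Hist1h3i was counted 23, 191 and 29 times in MAC-1- and 6, 7 and 0 times in MAC-1+ HSCs at 4 weeks, which did not overlap.

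H4 genes held 21.3% of the counts, led by Hist1h4d (chr13:23581598-23582735). Its level was 52.7, 55.8 and 51.3 CPM in 4 week MAC-1-, 64.6, 110, 79.2 and 66.1 CPM in 4 week MAC-1low and 34.8, 45.3 and 33.2 CPM in 4 week MAC-1+ samples. The 3 populations were separate, with MAC-1low highest and MAC-1+ lowest, and the log2 difference between MAC-1+ and MAC-1low was -1.08 ± 0.37 (SE; adjusted p = 0.626, edgeR). Hist1h4h had 7.04 ± 3.88 CPM in SS MAC-1- (n = 3) and 16.4 ± 1.75 CPM in SS MAC-1low (n = 3), without overlap. Hist4h4, on chromosome 6, was counted 10, 1 and 58 times in SS MAC-1low samples and 356, 37, 412 and 262 times in those of 4 week MAC-1low HSCs, which overlapped. Hist1h4c had 31.7 ± 4.28 CPM in SS MAC-1low (n = 3) and 17.3 ± 7.60 CPM in 4 week MAC-1low HSCs (n = 4), without overlap. Hist1h4i varied within populations, with 20.7 ± 20.9 CPM in SS MAC-1- (n = 3) and 19.8 ± 21.6 CPM in 4 week MAC-1+ HSCs (n = 3). Hist1h4j was counted 203 times in 1 sample of 4 week MAC-1- HSCs and 0 and 1 times in the other samples of that population.

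Each comparison between populations was a contrast in 1 edgeR model of all 16 samples, adjusted by Benjamini-Hochberg over all 13661 genes, with a gene called at an adjusted p below 0.1. Comparisons that share a population share its samples and are not independent of each other.

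SS MAC-1low HSCs were compared with SS MAC-1- HSCs to ask how low MAC-1 goes with histone RNA without transplantation. Hist1h2bc fell, with a log2 fold change of -1.70 ± 0.27 (SE; adjusted p = 0.0948, edgeR), and was the only member called, where 0.0146% of all genes tested were called. The median of the 52 members was 0.77, with 34 positive and 18 negative, compared with 0.00 over all genes tested, so Hist1h2bc lay on the other side of zero from most members. Samples did not overlap in 11 members, 8 higher and 3 lower, compared with 11.3% of all genes (5.95% higher and 5.38% lower). The 3 lower members were Hist1h2bc, Hist1h1c and Hist1h2ad. An unadjusted p below 0.05 was reached by 4 members, compared with 9.36% of all genes. The fold change of Hist1h2bc ran from -1.90 to -1.57 when any 1 sample was left out, but its adjusted p was above the threshold in 10 of 16 such fits. It was 0.135 when SS MAC-1- replicate 3 was left out, 0.212 and 0.229 for SS MAC-1low replicates 1 and 2, 0.124 and 0.169 for 4 week MAC-1- replicates 1 and 2, 0.106, 0.122, 0.219 and 0.198 for 4 week MAC-1low replicates 1 to 4, and 0.110 for 4 week MAC-1+ replicate 2. The call was also lost with limma-voom (adjusted p = 0.299), with DESeq2's size factors (0.110), and with only the 6 SS samples in the model (0.898). A term for replicate number in the edgeR model ended it as well. Hist1h2bc stayed called with DESeq2, which called 6.86% of all genes there, and in edgeR without the filter on low counts (0.0439% of all genes).

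4 week MAC-1low HSCs were compared with SS MAC-1low HSCs to follow the same phenotype after transplantation. Hist1h2bc rose, with a log2 fold change of 1.96 ± 0.26 (SE; adjusted p = 0.0235, edgeR), again as the only member called, where 0.0439% of all genes were called. The median of the members was 0.08, with 26 positive and 26 negative, compared with -0.02 over all genes. Samples did not overlap in 9 members, 5 higher and 4 lower, compared with 10.4% of all genes (5.44% higher and 4.98% lower). An unadjusted p below 0.05 was reached by 4 members, compared with 8.89% of all genes. Higher in every 4 week sample were Hist1h2bc, Hist1h1c, Hist1h2bg, Hist1h2bb and Hist1h1a, and lower were Hist1h1e, Hist1h4c, Hist1h4h and Hist1h2ao. The adjusted p of Hist1h2bc was 0.119 and 0.108 without SS MAC-1low replicates 1 and 2, and 0.137 with only these 7 samples in the model. With a term for replicate number in the edgeR model it was 0.175, though no label ties SS to 4 week samples of the same number. Hist1h2bc stayed called with DESeq2 (4.71% of all genes called) and limma-voom (0.176%). The same held in edgeR with DESeq2's size factors (0.0439%) and without the filter on low counts (0.154%).

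Whether the difference between MAC-1low and MAC-1- differed between 4 week and SS HSCs was tested as an interaction. For Hist1h2bc it was 1.66 ± 0.36 (SE, log2), with an adjusted p of 0.216 by edgeR, so that the difference between the differences was not called. No member was called by edgeR, where 0.0586% of all genes were. An unadjusted p below 0.05 was reached by 3 members, compared with 8.73% of all genes. DESeq2 called Hist1h2bc and Hist1h2bp, where it called 5.38% of all genes.

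4 week MAC-1- HSCs were compared with SS MAC-1- HSCs. No member was called, where 0.432% of all genes were, and 4 members had an unadjusted p below 0.05, compared with 10.4% of all genes. Of 52 members, 42 had a positive and 10 a negative log2 difference, with a median of 0.81 compared with -0.03 over all genes. In 8 members all 4 week MAC-1- samples lay above all SS MAC-1- samples, compared with 9.24% of all genes, and in no member did they lie below, compared with 7.4% of all genes (16.6% in either direction). These were Hist1h2ag, Hist1h2ak, Hist1h2ai, Hist1h2af, Hist1h2bp, Hist1h3i, Hist1h3c and Hist4h4.

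The 3 populations of 4 week HSCs were compared with each other. Between MAC-1+ and MAC-1- no member was called, where 3.25% of all genes were, and 2 members, Hist1h1c and Hist1h4j, had an unadjusted p below 0.05, compared with 13.4% of all genes. The median of the members was -0.46, with 16 positive and 36 negative, compared with 0.07 over all genes, and samples did not overlap in 8 members, compared with 21.7% of all genes. Only Hist3h2a was higher in every MAC-1+ sample (10.2% of all genes), and 7 members were lower (11.5%), namely Hist1h2ai, Hist1h2an, Hist1h2bj, Hist1h3g, Hist1h3i, Hist1h4d and Hist1h4f. Between MAC-1low and MAC-1- no member was called, where 0.278% of all genes were, and no member had an unadjusted p below 0.05, compared with 7.25% of all genes. The median there was -0.09, and 5 members did not overlap, compared with 10.8% of all genes. Of these, 3 were higher (5.23% of all genes) and 2 lower (5.53%). Between MAC-1+ and MAC-1low 0 members and 0% of all genes were called by edgeR, and 1 member, Hist1h4d, had an unadjusted p below 0.05, compared with 6.85% of all genes. The median was -0.29, and 4 members did not overlap, compared with 8.23% of all genes. None was higher (3.75% of all genes) and 4 were lower (4.48%), namely Hist1h1a, Hist1h2bl, Hist1h4d and Hist1h4j. DESeq2 called 4, 0 and 1 members in these comparisons, where it called 11.3%, 4.13% and 3.09% of all genes.

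**Figure D5:**
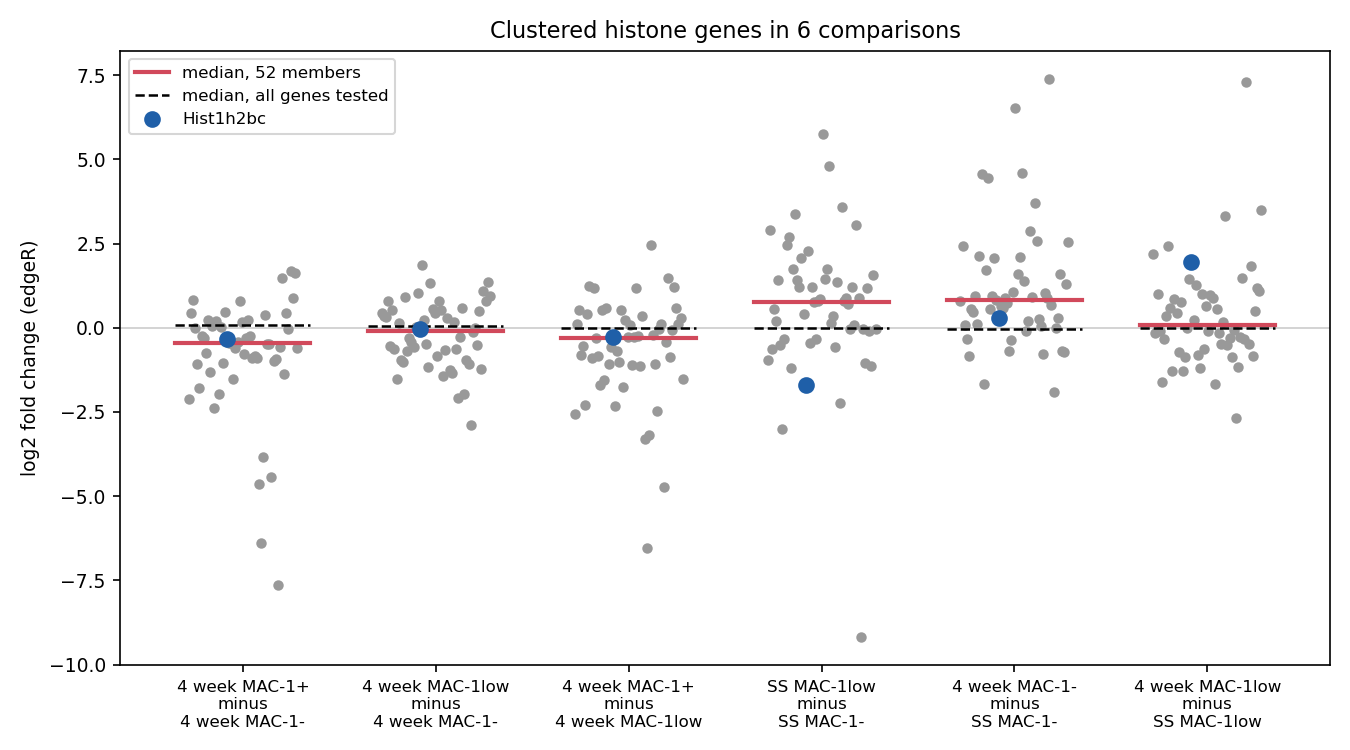
Log2 fold changes (edgeR) of the 52 tested members (grey points, ordered by name) in 6 comparisons, with the median of the members (red) and of all genes tested (dashed), and Hist1h2bc in blue. Hist1h2bc lies at -1.70 and 1.96 in the comparisons that hold SS MAC-1low HSCs and within 0.32 of zero in the other 4.

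Other genes of histone supply were read in the same model. Of 12 tested histone genes outside the clusters, 2 fell from 4 week MAC-1- to MAC-1+ HSCs and none rose, where 3.25% of all genes were called. A positive difference was found in 3 of the 12. The 2 called genes were H2afz, a variant H2A, which fell by 1.19 ± 0.20 on the log2 scale (SE; adjusted p = 0.00624, edgeR), and H3f3a, a variant H3, which fell by 0.98 ± 0.21 (adjusted p = 0.0232, edgeR). H2afz also rose from SS MAC-1- to 4 week MAC-1- HSCs, by 1.19 ± 0.20 (adjusted p = 0.0275, edgeR). The medians of this list were -0.63 and 0.28 in these comparisons. Of 26 tested genes of a list for histone mRNA 3′ end processing and decay, none was called in any of the 7 contrasts by edgeR. Between 4 week MAC-1- and SS MAC-1- HSCs, 8 had an unadjusted p below 0.05, compared with 10.4% of all genes. The list also holds regulators of the cell cycle such as E2f1 and Ccne2, so this count does not describe 3′ end genes alone. Slbp, E2f1 and Ccne2 stand among the S phase genes below as well. Slbp, the stem-loop binding protein, had 287 ± 41.3 CPM in 4 week MAC-1- (n = 3) and 169 ± 41.2 CPM in SS MAC-1- HSCs (n = 3). The HSC, erythroblast, megakaryocyte and platelet, neutrophil, and T and NK cell genes given above also differed between some of the populations. Their part in the values of the histone genes was not tested.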

How the data were processed

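The authors deposited 1 table of counts, whole reads per gene and sample, not normalized, from SMART-Seq v4 and Nextera XT libraries run through the nf-core RNA-seq pipeline with STAR. Which counting program, build and annotation they used: not given in the sources used here. These libraries carry no molecular identifiers and no strand. Members were taken by gene name, and the members and lists were chosen with earlier results of these data known. The members with values were Hist1h2bc, every called member, the 12 most abundant, the most abundant of each class and further members by smallest unadjusted p up to 20. The model was fitted with edgeR 4.0.16 under R 4.3.3 (TMM, filterByExpr with a minimum count of 10 and a minimum total of 15, robust quasi-likelihood test, all 16 samples, a mean per population); limma 3.58.1 and DESeq2 1.42.0 served as alternatives. All 3 were tested on simulated data. CPM are scaled with TMM factors. Identifiers of 69 of 71 members were matched to GENCODE M21. Plots used Python 3.11.15 and matplotlib 3.10.9.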

Additional observations from a re-analysis of the deposited data

Results flagged for a closer look

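Hist1h3h, an H3 gene, had 2.34 CPM (51 counts) in 4 week MAC-1low replicate 2 and 0 in the other 3 samples of that population, a gap that takes up the whole range. Of 21 quantities tested in the 4 samples of that population, the 20 named members and the summed level, it was the only 1 that stood so far from the others, and chance gives about 1 in 20. With 3 samples at 0 the gap always equals the range, so that this says only that 1 sample had counts. Hist1h1t and Hist2h3c2, not among the named members, also had counts in only 1 sample of that population. Of the 50-base windows of Hist1h3h, 93.9% also stand in other genes.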

How the results depend on the processing

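The common biological coefficient of variation was 1.13, and most members lie at few counts, which limits what could be called. In SS MAC-1low against SS MAC-1-, 1 member was called and 0 with an adjusted p threshold of 0.05, with limma-voom, with DESeq2's size factors, with only the groups compared and with the replicate block; DESeq2 called 5. After transplantation, for MAC-1low HSCs against their SS counterpart, 1 was called, 0 with only the groups compared or the replicate block, and 3 with DESeq2. DESeq2 called 4 members in 4 week MAC-1+ against MAC-1-, 1 in MAC-1+ against MAC-1low, 4 between the MAC-1- populations and 2 in the interaction, where edgeR called 0. In simulated counts DESeq2 called far more unchanged genes than its threshold allows and limma-voom slightly more, while edgeR stayed under it. Those counts gave every gene the same coefficient of variation, below the 1.13 of the data, and changed only genes with many counts. They therefore cannot rank the errors of these tools in the data at hand. Leaving out 1 sample gave 0 to 1 called members in both comparisons with SS MAC-1low. Whether replicate numbers pair the samples was not settled: same-numbered samples correlated at -0.00499 to 0.0397 and others at -0.0260 to 0.0230. For MAC-1+ against MAC-1- all same-numbered pairs (0.0177 to 0.0331) exceeded the others (at most 0.00164). These ranges overlapped in all other comparisons. The authors' sample codes order 4 week samples differently. MAC-1- replicate 2 then stands near MAC-1low replicate 3 (0.0230) and MAC-1+ replicate 3 (-0.0105), and MAC-1- replicate 3 near MAC-1low replicate 4 (0.0201). The block used title numbers, and grouping by code was not tested. With the replicate block, Hist1h2bc had adjusted p of 0.388 (SS) and 0.175 (4 week against SS) by edgeR, both past the threshold without the block, and no other member's call changed. The log2 difference of Hist1h2bc between 4 week MAC-1low and MAC-1-, -0.05, ran from -0.14 to 0.14 when 1 sample was left out and turned to 0.14 without 4 week MAC-1- replicate 3 and to 0.05 without 4 week MAC-1low replicate 1. Without Hist1h2bc the summed level was 408 CPM in SS MAC-1-, 515 CPM in 4 week MAC-1- and 549 CPM in 4 week MAC-1low. 53 members were detected, 51 to 53 without any 1 sample, and 17 when 10 counts were asked of all 16 samples. Single members were recomputed for Hist1h2bc and for members at an unadjusted p below 0.05; the other named members were not run singly. The causes were not tested.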

Other observations

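Genes of S phase and mitosis were read in the same model, as lists chosen with earlier results of these data known. Of 30 S phase genes, 3 fell from 4 week MAC-1- to MAC-1+ HSCs and none rose, where 3.25% of all genes were called, and 5 of the 30 had a positive difference. Tyms, thymidylate synthase, fell by 1.90 ± 0.39 on the log2 scale (SE; adjusted p = 0.0186, edgeR), Dut, which removes dUTP, by 1.18 ± 0.31 (adjusted p = 0.0710, edgeR), and Mcm3, a subunit of the replicative helicase, by 1.36 ± 0.38 (adjusted p = 0.0939, edgeR). The median of the S phase genes was -0.81 there and 0.77 from SS MAC-1- to 4 week MAC-1- HSCs, where none was called and 13 had an unadjusted p below 0.05, compared with 10.4% of all genes. Of 18 mitosis genes, Ska1, of the kinetochore, was called in 3 contrasts, all of which hold SS MAC-1- HSCs. These were SS MAC-1low against SS MAC-1- (0.0146% of all genes called), 4 week against SS MAC-1- (0.432%) and the interaction (0.0586%). Ska1 had a mean of 0.0684 CPM in SS MAC-1- and 26.9 CPM in SS MAC-1low HSCs (adjusted p = 0.0948, edgeR). The SS MAC-1- mean lies below what a count of 0 allows in those samples, 0.154 to 0.220 CPM. The median of the mitosis genes was 1.25 from SS MAC-1- to SS MAC-1low HSCs, where Hist1h2bc fell, compared with 0.00 over all genes.

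Of 24 histone chaperones, which carry histones to and from DNA, 3 fell in the same comparison of 4 week HSCs and none rose, where 3.25% of all genes were called, and 7 of the 24 had a positive difference. Nap1l1 fell by 1.12 ± 0.29 (adjusted p = 0.0653, edgeR), Npm1 by 0.93 ± 0.26 (adjusted p = 0.0940, edgeR) and Hat1, a histone acetyltransferase of new histones, by 1.39 ± 0.38 (adjusted p = 0.0862, edgeR), each on the log2 scale.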
